A study of Mus musculus with 3 samples.

Results

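The autophagy machinery of mouse lung macrophages was followed as 34 genes, taken from the 12880 genes that have a row in the deposited tables. The members are the symbols made of Atg and a digit, those that begin with Gabarap, Map1lc3 or Wipi, and Ulk1, Ulk2, Rb1cc1, Becn1, Ambra1, Pik3c3, Pik3r4, Sqstm1, Optn and Nbr1. The rule itself uses no measured value, though it was set with earlier results of these data known, and all 34 had a level in each library. Bulk RNA was sequenced from LysM-GFP mice on a C57BL/6 background, 6 to 8 weeks old, whose myeloid cells fluoresce through a reporter at the lysozyme M locus. Lung injury was induced with lipopolysaccharide (LPS), a component of bacterial cell walls, nebulized in saline at 1 mg/ml. GFP+ cells without the neutrophil antigen Ly6g and with the Fc receptor CD64 were sorted at 0, 4 and 24 h, with 1 library per time, and the column headings add the name CD11b. All 3 samples carry the same LPS treatment text, so the labels do not say whether the mice at 0 h had inhaled LPS, and they do not say how many animals stand behind a library.

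Autophagy encloses cytoplasm in a double membrane that grows from a cup, the phagophore, into an autophagosome and then fuses with a lysosome. A kinase complex starts the process, a lipid kinase complex marks the membrane, and a pair of ubiquitin-like conjugation systems attach proteins of the ATG8 family (LC3 and GABARAP) to it, where cargo receptors bind. In macrophages the same conjugation proteins also decorate phagosomes, and the receptor p62, encoded by Sqstm1, is both a cargo of autophagy and a transcriptional target of the oxidative stress factor NRF2.

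The libraries held 24825976, 20379236 and 25135476 reads at 0, 4 and 24 h, of which the 34 members took 0.330%, 0.214% and 0.276%. Levels are read counts normalized by median-of-ratios size factors. With 1 library per time there is no replicate check, no p-value is given, and each fold carries in parentheses a 95% interval that covers counting error only. The sort markers were present in every library: Fcgr1, which encodes CD64, stood at 2479 (0 h), 7237 (4 h) and 2887 (24 h), Itgam, which encodes CD11b, at 7235, 33421 and 7385, and Ly6g had no row. The 10 general macrophage markers summed to 118673, 203451 and 118213, with the reporter's host gene Lyz2 at 40.2, 20.3 and 17.3. The libraries stood apart in other cell type markers. Of 17 alveolar macrophage markers with a row, 15 were at least 2-fold lower at 4 h than at 0 h, with summed levels of 825509 at 0 h, 303975 at 4 h and 484517 at 24 h. Chi3l3 made up most of these sums, at 601110, 209378 and 310123. At 24 h, 1 of the 17 was at least 2-fold below 0 h and 0 were above it. Of 13 classical monocyte markers, 11 were at least 2-fold higher at 4 h than at 0 h, with sums of 116953, 545772 and 99662 in the same order of times. At 24 h, 8 of the 13 were at least 2-fold above 0 h and 2 below it. The sums hide this, since Fn1 alone stood at 87223 at 0 h and 25383 at 24 h. Of 11 neutrophil markers with a level at both times, 11 were at least 2-fold higher at 4 h than at 0 h. At 24 h, 7 of 11 were at least 2-fold above 0 h and 0 below it. The 12 neutrophil markers with a row summed to 5039, 39799 and 8168. Ly6g, Elane and Mpo of the same list had no row. Sums for lung epithelium lay between 12449 and 12547, for endothelium between 805 and 1500.4, for dendritic cells between 877 and 3448 and for lymphocytes between 119 and 149. The even epithelial sum held opposite differences, with 3 of 8 markers at least 2-fold higher and 2 lower at 4 h than at 0 h. Xist, transcribed from the inactive X, gave 13705, 4 and 1 reads in the same order, and the Y-linked Ddx3y gave 4, 3994 and 2357, so the 0 h library also stood apart in sex-linked transcripts. The part of any of these in the results that follow was not tested, and fewer cells of a type cannot be told apart from less RNA per cell.

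Few members moved far. In the 4 h library, 1 of 34 members was at least 2-fold above its 0 h level (Atg9b) and 3 were at least 2-fold below it (Map1lc3a, Sqstm1 and Atg14), where 15.2% of 12512 genes were higher and 14.3% were lower. Set over 0 h, the 24 h library again had 1 member higher (Atg9b) and 3 lower (Sqstm1, Atg2a and Optn), against 4.76% and 8.85% of 12310 genes. Set over 4 h, it had 2 higher (Map1lc3a and Map1lc3b) and 1 lower (Atg9a), against 14.3% and 17.8% of 12578 genes. In all, 8 members passed 2-fold in at least 1 comparison and 26 in none. The 3 comparisons share libraries, so a high or low value in 1 library enters a pair of them.

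Set against all genes, the members' share past 2-fold was 11.8% for 4 h over 0 h, beside 29.6% of all genes, and 8.82% for 24 h over 4 h, beside 32.1%. For 24 h over 0 h the shares lay close together, with 11.8% of members and 13.6% of all genes. The median log2 ratio of the members, computed with a pseudocount of 1, was -0.27 for 4 h over 0 h, -0.16 for 24 h over 0 h and 0.02 for 24 h over 4 h, while that of all genes was 0.00 each time. Ignoring direction, the members' median log2 distance from no difference was 0.40, 0.35 and 0.31, beside 0.57, 0.38 and 0.65 over all genes. Within 0.5 log2 units of no difference lay 21, 25 and 25 of 34 members, beside 45.6%, 61.2% and 40.1% of all genes.

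**Figure D1:**
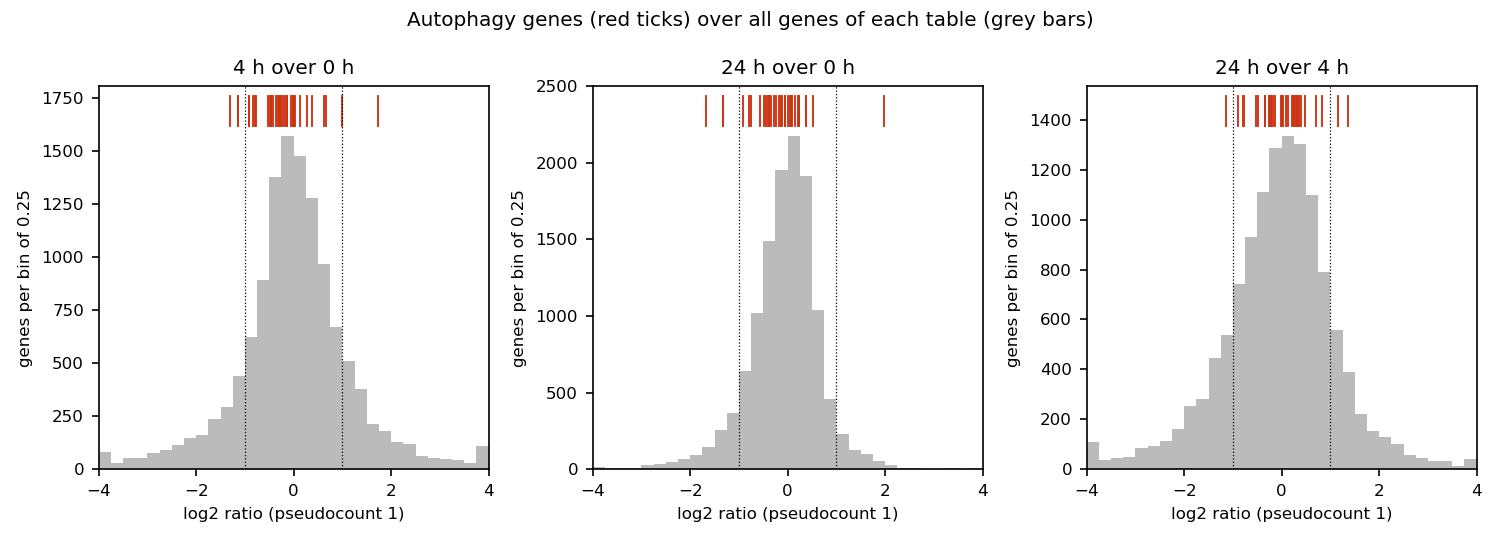
Log2 ratios with a pseudocount of 1 in the 3 comparisons: grey bars count all genes per bin on the vertical axis, each red tick is 1 of the 34 autophagy genes, and dotted lines mark 2-fold. Ratios beyond 4 log2 units are counted in the end bins. The members gather around a median of -0.27 for 4 h over 0 h, and their spread is narrower than that of all genes in the comparisons that hold the 4 h library.

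The direction depended on the scaling in the comparisons that hold the 24 h library. With 4 h over 0 h, 26 of 34 members lay below no difference, and 25 to 28 did so under the other scalings tried. With 24 h over 0 h, 22 lay below, but 17 did when reads were scaled to library totals and 33 when the ratios were recentred on 80 ribosomal protein genes. With 24 h over 4 h, 18 lay above, 26 with library totals and 4 with the ribosomal recentring. Over all genes with size factors, 49.9%, 50.1% and 49.9% lay below no difference for 4 h over 0 h, 24 h over 0 h and 24 h over 4 h. The all-gene median log2 ratio for 24 h over 0 h was 0.17 with library totals and -0.55 with ribosomal genes. For 24 h over 4 h it was 0.32 and -0.48. All-gene counts past 2-fold moved too. For 24 h over 0 h, 586 higher and 1090 lower became 863 and 845 with library totals and 190 and 3028 with ribosomal genes. For 24 h over 4 h, 1796 higher and 2239 lower became 2901 and 1565, or 888 and 3845.

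**Figure D2:**
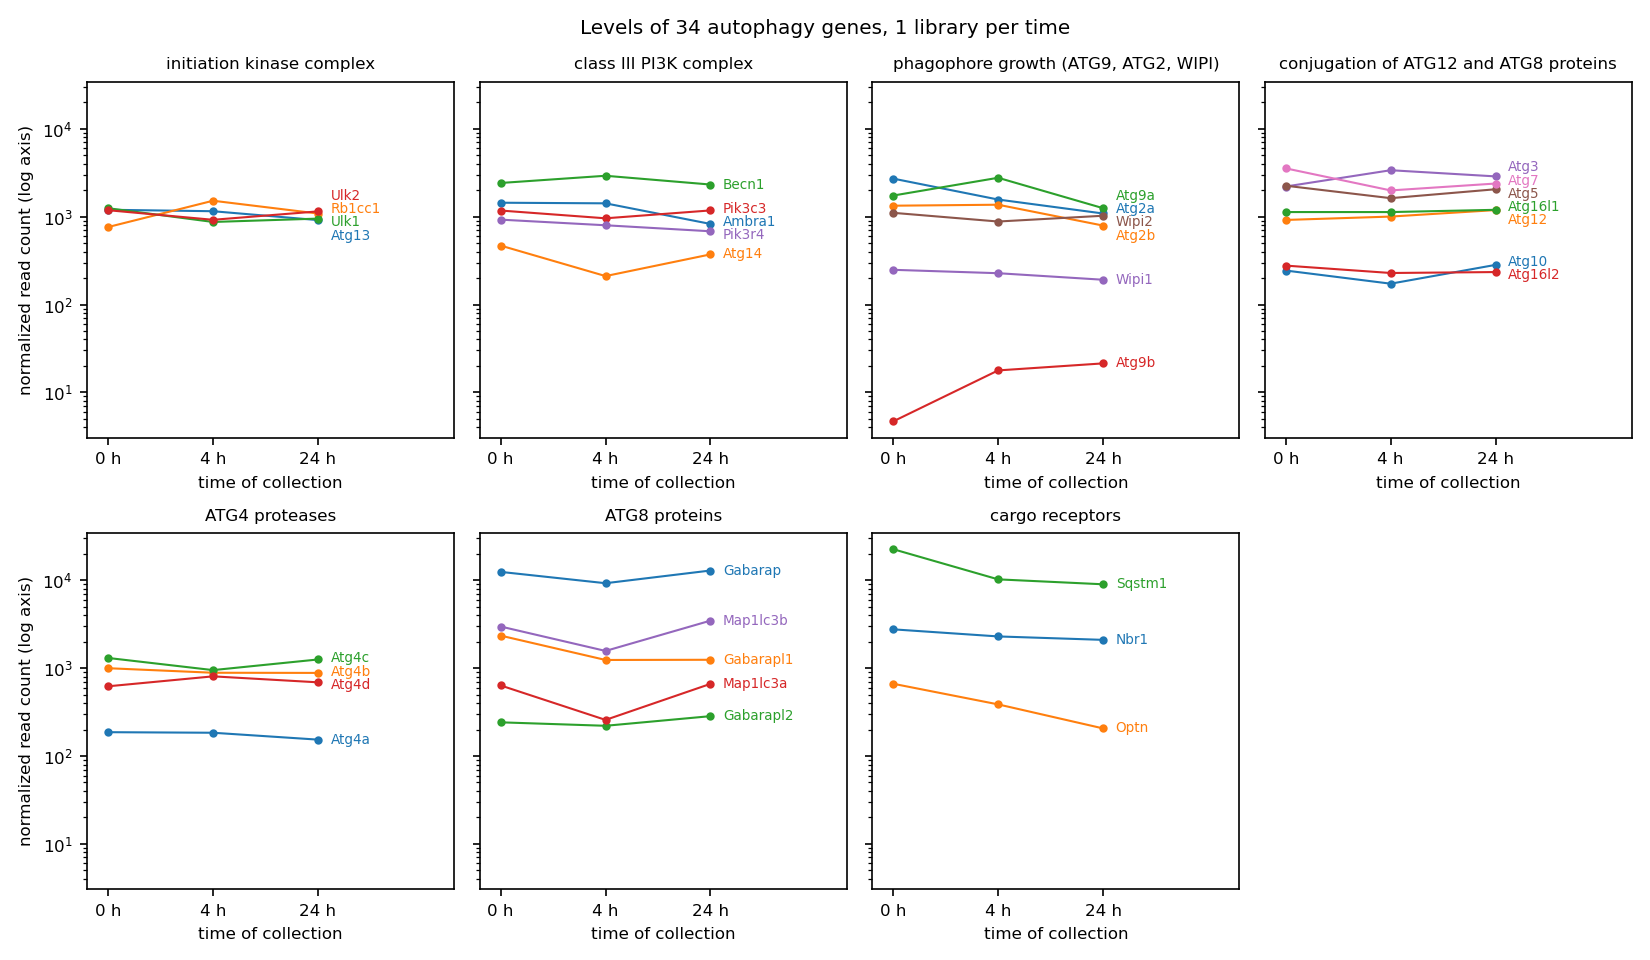
Normalized read counts of the 34 members at 0, 4 and 24 h on a log axis, 1 panel per role, each point 1 library and each line 1 gene. Sqstm1 and Gabarap are the highest lines, Map1lc3a and Atg14 dip at 4 h, and Atg9b lies between 4.67 and 21.4.

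The promoters of the members that moved were read next, since sequence motifs there are the known landing sites of factors that act on autophagy genes. RefSeq windows on GRCm38.p6, from 250 bases before to 50 bases after a start site, were given for 28 of the 34 members and 7 of the 8 that passed 2-fold, Map1lc3a being the one without. They were searched on both strands for CACGTG, the E-box core bound by TFEB and TFE3, for TGACNNNGC, the NRF2 element, for TTCNNNGAA, bound by STAT factors, and for the interferon-stimulated response element. The 3 windows shown belong to members that passed 2-fold at 4 h or 24 h, and capitals mark a motif match. They are not a representative choice, since every window with a match among these 7 is shown and most of those without are not. Atg14 (chr14:47568385-47568684, minus strand) holds CACGTG from 1 base before the start site, Map1lc3b (chr8:121590188-121590487, plus strand) holds an NRF2 element from 4 bases after it, and Sqstm1 (chr11:50210771-50211070, minus strand) holds none of the 4 motifs in this window.
Atg14: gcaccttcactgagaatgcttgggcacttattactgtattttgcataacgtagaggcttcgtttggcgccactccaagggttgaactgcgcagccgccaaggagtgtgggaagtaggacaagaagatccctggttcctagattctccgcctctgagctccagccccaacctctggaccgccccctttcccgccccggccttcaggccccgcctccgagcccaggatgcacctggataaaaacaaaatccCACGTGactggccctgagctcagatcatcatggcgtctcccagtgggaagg
Map1lc3b: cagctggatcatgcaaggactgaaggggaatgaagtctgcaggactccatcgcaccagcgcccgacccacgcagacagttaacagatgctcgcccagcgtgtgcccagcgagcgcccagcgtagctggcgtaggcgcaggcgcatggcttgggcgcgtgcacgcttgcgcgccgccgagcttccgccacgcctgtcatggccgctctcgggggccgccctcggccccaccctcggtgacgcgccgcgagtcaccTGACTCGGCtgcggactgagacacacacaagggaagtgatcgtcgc
Sqstm1: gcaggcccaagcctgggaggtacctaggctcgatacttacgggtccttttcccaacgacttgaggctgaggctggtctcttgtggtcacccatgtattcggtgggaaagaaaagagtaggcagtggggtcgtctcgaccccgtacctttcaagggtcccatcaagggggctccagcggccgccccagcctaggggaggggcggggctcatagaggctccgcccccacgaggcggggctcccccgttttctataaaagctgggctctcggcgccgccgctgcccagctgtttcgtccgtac

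Across the 31 windows of the members, CACGTG was found in 12.9%, in Atg14, Atg3, Atg5 and Atg7, against 7.15% of all 32851 windows. The NRF2 element stood in 9.68% of member windows, in Atg13, Map1lc3b and Ulk2, against 12.4% of all. The STAT element stood in 12.9%, in Gabarap, Gabarapl1, Nbr1 and Wipi1, against 8.30%, and the interferon element in 3.23%, in Nbr1 alone, against 3.44%. Among the 7 moved members with a window, Atg14 and Map1lc3b were the ones with a match to any of the 4 motifs. The share of all windows with any of the 4 was not computed, so this count has no background beside it. Member windows had a median GC content of 59.3%, against 52.7% over all windows. No matches overlapped each other. A match describes the letters of the window and not a bound site.

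The cargo receptors, among them the member with the highest level at 0 h, were lower at both later times. All 3 lay below their 0 h level at 4 h and at 24 h, under each scaling tried. Sqstm1 (chr11:50200151-50210820 on mm10), which encodes p62, a receptor that carries ubiquitinated cargo to LC3, stood at 22638 (0 h), 10264 (4 h) and 9020.0 (24 h). It was 2.21-fold lower (2.15 to 2.26) at 4 h than at 0 h and 2.51-fold lower (2.45 to 2.57) at 24 h than at 0 h. It was 1.14-fold lower (1.11 to 1.17) at 24 h than at 4 h, a log2 ratio of -0.19 that turned to 0.14 with library totals and was -0.67 with ribosomal recentring. The authors' deposited log2 fold changes, which are shrunken toward 0, were -0.93 and -0.92 for those comparisons with 0 h.

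Optn (chr2:5020641-5063938) encodes optineurin, a receptor for damaged mitochondria and intracellular bacteria that TBK1 phosphorylates. Its level was 665 (0 h), 387 (4 h) and 206 (24 h), highest at 0 h and lowest at 24 h. It was 1.72-fold lower (1.5 to 1.97) at 4 h and 3.22-fold lower (2.79 to 3.74) at 24 h than at 0 h, and 1.88-fold lower (1.58 to 2.23) at 24 h than at 4 h. Among the 34 members this was the lowest ratio of 24 h to 0 h. An annotated antisense RNA, 4930551O13Rik, overlaps Optn, and whether reads were counted by strand is not given in the sources used here. Nbr1, a p62 relative with a similar domain layout, differed least among the 3, at 2769 (0 h), 2299 (4 h) and 2101 (24 h), and was 1.20-fold lower (1.14 to 1.28) at 4 h and 1.32-fold lower (1.25 to 1.39) at 24 h than at 0 h.

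The ATG8 proteins, the ubiquitin-like tags of the autophagosome membrane, were all lower at 4 h. Relative to 0 h, 5 of 5 lay below no difference at 4 h, under each scaling tried, with a median log2 ratio of -0.92. Map1lc3a (chr2:155276363-155278073), which encodes LC3A, stood at 636 (0 h), 258 (4 h) and 663 (24 h), and Map1lc3b (chr8:121590467-121598047), which encodes LC3B, the form measured in most autophagy assays, at 2981 (0 h), 1571 (4 h) and 3478 (24 h). Both were lowest at 4 h and close to their 0 h level, or above it, at 24 h, whereas ribosomal recentring put their log2 ratios of 24 h over 0 h at -0.50 and -0.34 and left 0 of 5 ATG8 genes above 0 h instead of 4. Map1lc3a was 2.47-fold lower (2.11 to 2.90) at 4 h than at 0 h and 2.57-fold higher (2.20 to 3.02) at 24 h than at 4 h, and its 24 h and 0 h levels differed by less than counting error, at 1.04-fold (0.940 to 1.16). Map1lc3b was 1.90-fold lower (1.78 to 2.03) at 4 h than at 0 h, just short of a 2-fold call that it passed with library totals, at a log2 ratio of -1.08, and 2.21-fold higher (2.08 to 2.36) at 24 h than at 4 h. Recentring on ribosomal protein genes brought the 24 h to 4 h ratios of both under 2-fold, with log2 ratios of 0.87 for Map1lc3a and 0.66 for Map1lc3b. Map1lc3b overlaps the gene model Gm20388 on its own strand, and reads shared between them may be split.

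The GABARAP branch, which acts late in autophagosome closure and fusion, divided. Gabarap (chr11:69991369-69994949) had 12485 (0 h), 9276 (4 h) and 12942 (24 h), the same order of libraries as the LC3 genes with a smaller difference, 4 h being 1.35-fold lower (1.31 to 1.38) than 0 h. Gabarapl1 had 2349 (0 h), 1240.2 (4 h) and 1247 (24 h). It was 1.89-fold lower (1.76 to 2.04) at 4 h and 1.88-fold lower (1.77 to 2.01) at 24 h than at 0 h, passing 2-fold at 4 h with library totals and at 24 h with ribosomal recentring, and its 2 later libraries did not differ beyond counting error, at 1.01-fold (0.927 to 1.09). Gabarapl2, which encodes GATE-16, had 242 (0 h), 221 (4 h) and 284 (24 h), and its intervals against 0 h included no difference at both later times. Relative to 4 h, 5 of 5 ATG8 genes lay above no difference at 24 h, also with library totals and with the authors' own scaled values, but 2 of 5 after ribosomal recentring. The summed alveolar macrophage markers were likewise lowest at 4 h, at 303975, and their part in this result was not tested.

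Of the class III phosphatidylinositol 3-kinase complex, which makes the lipid that recruits later factors, the targeting subunit differed most at 4 h against 0 h and Ambra1 at 24 h against 0 h. Atg14 (chr14:47540892-47568434), the subunit that directs the complex to the phagophore, stood at 469 (0 h), 211 (4 h) and 372 (24 h), lowest at 4 h. It was 2.22-fold lower (1.86 to 2.67) at 4 h than at 0 h, on 166 and 502 reads. An antisense RNA, Gm49004, overlaps it. The catalytic subunit Pik3c3 (VPS34) had 1175 (0 h), 958 (4 h) and 1178 (24 h), and the scaffold Pik3r4 (VPS15) had 925 (0 h), 798 (4 h) and 682 (24 h), neither of them past 1.5-fold in any comparison. Becn1, the core scaffold beclin 1, was highest at 4 h, with 2419.6 (0 h), 2923 (4 h) and 2322 (24 h), a difference of 1.21-fold higher (1.14 to 1.28) at 4 h than at 0 h. Ambra1, which activates beclin 1, had 1442 (0 h), 1419 (4 h) and 827 (24 h). Its 4 h and 0 h levels did not differ beyond counting error, and it was 1.74-fold lower (1.61 to 1.89) at 24 h than at 0 h.

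The initiation kinase complex, which receives signals from mTORC1 and AMPK, had no member past 2-fold. Rb1cc1, the scaffold FIP200, came nearest, with 762 (0 h), 1519 (4 h) and 1086 (24 h), and was 1.99-fold higher (1.82 to 2.18) at 4 h than at 0 h, so that the call rests on the scaling: with ribosomal recentring it passed. The kinases were lower at 4 h than at 0 h. Ulk1 had 1249 (0 h), 871 (4 h) and 951 (24 h) and was 1.43-fold lower (1.31 to 1.57), and Ulk2 had 1185 (0 h), 922 (4 h) and 1149 (24 h) and was 1.29-fold lower (1.17 to 1.41). With size factors both were lowest at 4 h, though Ulk1 at 24 h and 4 h did not differ beyond counting error, at 1.09-fold (0.993 to 1.20). Ribosomal recentring left 0 of the 4 genes of the complex higher at 24 h than at 4 h. Atg13, the regulatory subunit, had 1199 (0 h), 1154 (4 h) and 915 (24 h) and was 1.31-fold lower (1.21 to 1.42) at 24 h than at 0 h.

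Among the genes of phagophore growth, the lipid scramblase gene Atg9a was higher and the lipid transfer gene Atg2a lower at 4 h than at 0 h. Atg9a (chr1:75180860-75192010), whose product seeds the phagophore on vesicles, had 1739.8 (0 h), 2774 (4 h) and 1249.8 (24 h), highest at 4 h. It was 1.59-fold higher (1.5 to 1.70) at 4 h than at 0 h and 2.22-fold lower (2.08 to 2.37) at 24 h than at 4 h, a log2 ratio of -1.15 that became -0.82 with library totals. Atg2a (chr19:6241667-6262304), which bridges the phagophore to the endoplasmic reticulum, had 2714 (0 h), 1568 (4 h) and 1087 (24 h), highest at 0 h and lowest at 24 h. It was 1.73-fold lower (1.62 to 1.85) at 4 h and 2.50-fold lower (2.34 to 2.67) at 24 h than at 0 h. Its paralog Atg2b had 1334 (0 h), 1368 (4 h) and 792 (24 h), level between 4 h and 0 h within counting error and 1.68-fold lower (1.55 to 1.83) at 24 h than at 0 h.

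Atg9b (chr5:24384180-24392143), the less widely expressed ATG9 paralog, was the one member past 2-fold upwards against 0 h, on very few reads. Its reads numbered 5, 14 and 26 in the order of times, or normalized counts of 4.67, 17.8 and 21.4. The ratios were 3.81 (1.30 to 13.5) at 4 h and 4.58 (1.73 to 15.3) at 24 h against 0 h. Nos3, on the opposite strand, overlaps the gene, and reads of either could have been counted for the other. The phosphoinositide effectors stayed within 1.5-fold: Wipi2, which recruits ATG16L1, had 1107 (0 h), 881 (4 h) and 1025 (24 h), and Wipi1 had 248 (0 h), 227 (4 h) and 191 (24 h).

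Of the 7 conjugation genes none passed 2-fold, though Atg10 did for 24 h over 4 h with library totals and Atg7 for 24 h over 0 h with ribosomal recentring, and the enzymes of the ATG8 pathway differed in direction at 4 h. Atg7, the E1-like enzyme of both conjugation systems, had 3550.5 (0 h), 1990.3 (4 h) and 2385 (24 h), and was 1.78-fold lower (1.68 to 1.89) at 4 h than at 0 h. Atg3, the E2-like enzyme that passes ATG8 proteins to lipid, had 2206 (0 h), 3380.3 (4 h) and 2875 (24 h), and was 1.53-fold higher (1.45 to 1.62) at 4 h than at 0 h. With size factors, Atg7 was lowest and Atg3 highest in the same library, the one with the highest classical monocyte sum, 545772, whose part was not tested. Ribosomal recentring put 6 of the 7 genes below no difference for 24 h over 4 h, Atg7 and Atg12 among them. Atg7 was then lowest at 24 h. Library totals put 7 of 7 above no difference, and Atg3 was then highest at 24 h. Atg5 had 2252 (0 h), 1625 (4 h) and 2053 (24 h) and was 1.39-fold lower (1.29 to 1.48) at 4 h than at 0 h. Its conjugation partner Atg12 had 918 (0 h), 1003 (4 h) and 1189 (24 h), highest at 24 h with size factors but not with ribosomal recentring. Atg16l1, which places the ATG12 and ATG5 conjugate on membranes, was the most even member, with 1129 (0 h), 1128 (4 h) and 1197 (24 h), and its intervals included no difference in all 3 comparisons. Atg10, the E2-like enzyme for ATG12, had 244 (0 h), 173 (4 h) and 283 (24 h), and Atg16l2 had 277 (0 h), 228 (4 h) and 234 (24 h).

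The ATG4 proteases trim ATG8 proteins before conjugation and release them from lipid afterwards. Atg4b, the broadest of them, had 999 (0 h), 887 (4 h) and 883 (24 h), Atg4c 1307 (0 h), 951 (4 h) and 1256 (24 h) and Atg4d 622 (0 h), 807 (4 h) and 690.2 (24 h). With size factors, Atg4c was lowest and Atg4d highest at 4 h, both by less than 1.5-fold against 0 h. For 24 h over 4 h, ribosomal recentring left 0 of 4 genes above no difference, and library totals put 4 of 4 above it. Atg4c was thus not lowest at 4 h with the former, nor Atg4d highest with the latter. The row with the symbol Atg4a is uncertain. Its location on mm10, chr3:103643952-103646068, is that of the retrogene Atg4a-ps in GENCODE M21 (chr3:103643954-103646068), whereas Atg4a itself lies on the X chromosome (chrX:140956907-141164270). That row had 187 (0 h), 184 (4 h) and 154 (24 h), with intervals that included no difference in all 3 comparisons.

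**Figure D3:**
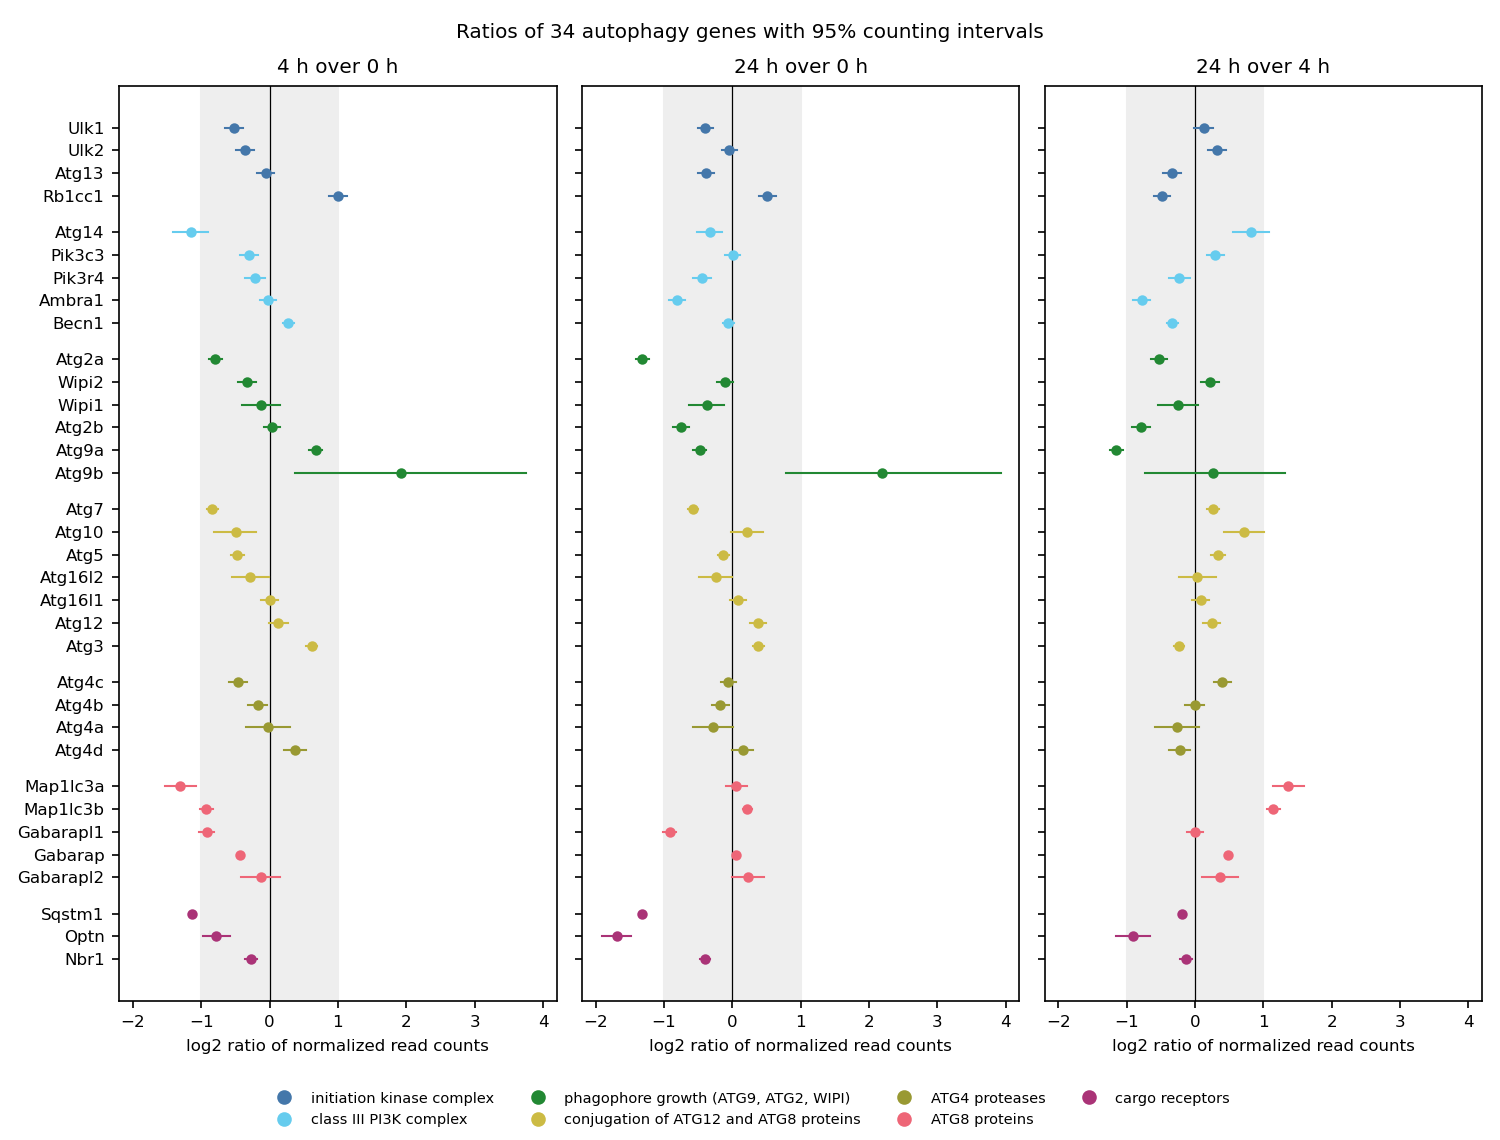
Log2 ratios of normalized counts for the 34 members in each comparison, grouped by role, with 95% counting intervals as horizontal bars, no pseudocount, and a grey band that spans ratios under 2-fold. The widest interval is that of Atg9b, and the ATG8 genes lie left of 0 for 4 h over 0 h and right of 0 or on it for 24 h over 4 h, where ribosomal recentring left 2 of 5 above 0.

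Per kilobase of transcript, levels can be compared between genes. Lengths were matched for 33 of 34 members and for 89.1% of all genes. The members' median was 338, 246 and 250 normalized counts per kb at 0, 4 and 24 h, beside 199, 192 and 175 over all matched genes, and 22, 21 and 21 of 33 members lay above the median of all. Gabarap had 9241, 6866 and 9579.6 per kb and Sqstm1 11114, 5039 and 4428, while Atg9b had 1.20, 4.55 and 5.48, the lowest in each library. Sqstm1 was thus above Gabarap at 0 h and below it at 4 and 24 h.

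Within the ATG8 family Gabarap made up 74.4%, 80.5% and 77.2% of the summed level per kb. Map1lc3b made up 9.48%, 7.27% and 11.1%, Gabarapl1 10.4%, 7.99% and 5.52%, Map1lc3a 4.60%, 2.72% and 4.81%, and Gabarapl2 between 1.16% and 1.54%. Map1lc3b and Gabarapl1 traded places between 0 h and 24 h. The sum itself was 12425 at 0 h, 8532 at 4 h and 12404 at 24 h. Among the cargo receptors Sqstm1 made up 93.0%, 88.9% and 89.5% of a sum of 11946, 5667 and 4946. On this scaling the sum of the ATG8 genes at 24 h was near its 0 h value and that of the cargo receptors was not.

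**Figure D4:**
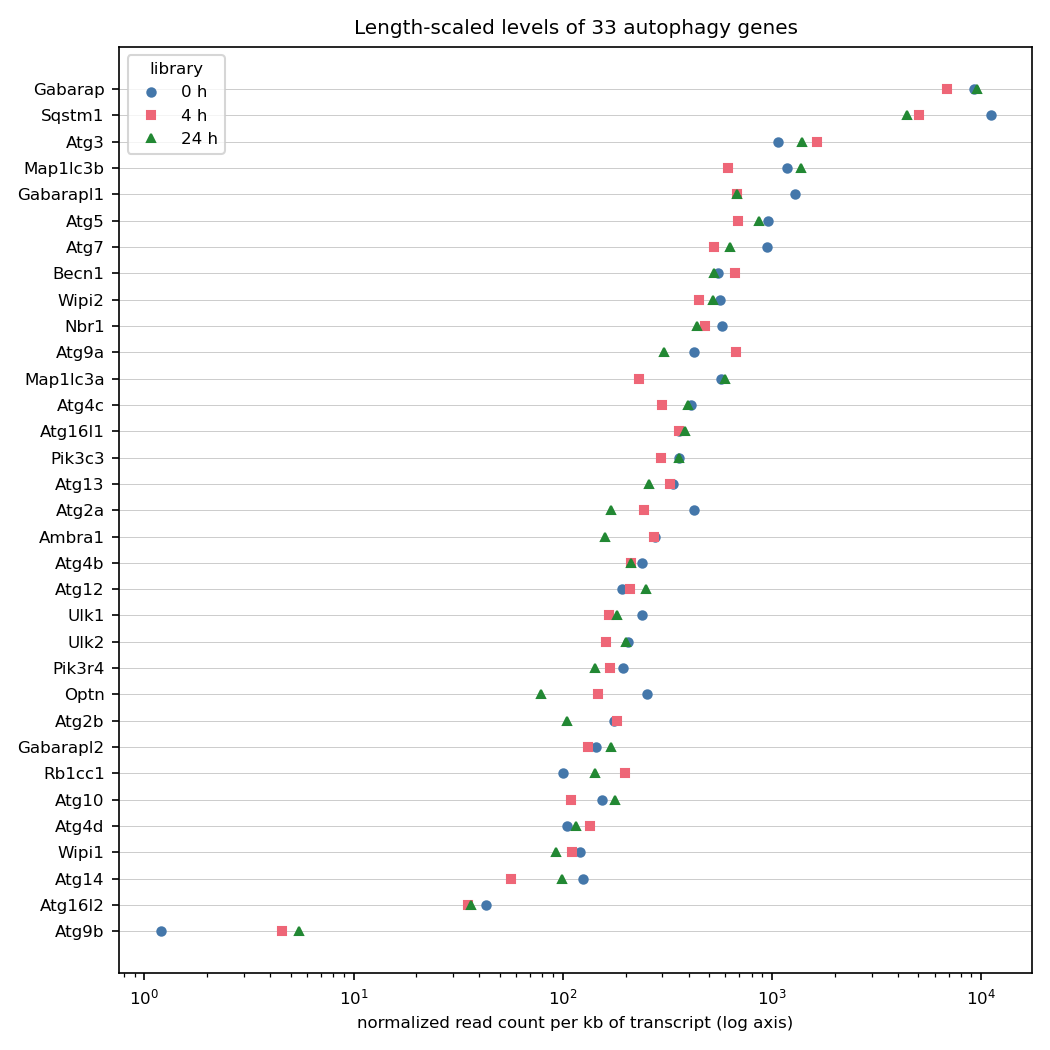
Normalized counts per kb of transcript on a log axis for the 33 members with a matched length, ordered by level, with 1 symbol per library. Gabarap and Sqstm1 stand apart at the top, between 4428 and 11114, and Atg9b at the bottom, between 1.20 and 5.48.

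Around the core machinery, 7 lists of 104 further genes were counted in the same way. Relative to 0 h, 3 were at least 2-fold higher and 13 lower at 4 h, and 1 was higher and 8 were lower at 24 h, which became 0 and 28 with ribosomal recentring. Relative to 4 h, 12 were higher and 13 lower at 24 h, a split that became 25 and 6 with library totals and 3 and 27 with ribosomal recentring. With size factors, the shares of all genes higher and lower were 15.2% and 14.3% for 4 h over 0 h, 4.76% and 8.85% for 24 h over 0 h, and 14.3% and 17.8% for 24 h over 4 h. They are the background for the size-factor counts here and in each list. With ribosomal recentring, 190 and 3028 of 12310 genes were higher and lower for 24 h over 0 h. For 24 h over 4 h it was 888 and 3845 of 12578, and with library totals 2901 and 1565. The ATG101 gene, listed as 9430023L20Rik, and the WIPI relatives Wdr45 and Wdr45l had 0 of 3 past 2-fold in any comparison.

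The other selective autophagy receptors held 6 of the 13 lower genes at 4 h. In this list 1 of 23 was at least 2-fold above 0 h at that time, beside 15.2% of all genes higher and 14.3% lower. Relative to 4 h, 6 receptors were higher and 2 lower at 24 h, beside 14.3% of all genes higher and 17.8% lower. With library totals this became 11 and 2, beside 2901 and 1565 of 12578 genes. With ribosomal recentring it became 2 and 5, beside 888 and 3845 genes. Park2, the ubiquitin ligase parkin of mitochondrial autophagy, had 469.7 (0 h), 35.5 (4 h) and 226 (24 h), and was 13.2-fold lower (9.03 to 20.1) at 4 h than at 0 h. Its partner kinase Pink1 had 1302 (0 h), 692 (4 h) and 1435 (24 h), and the mitochondrial receptor Bnip3l had 3179.8 (0 h), 1775 (4 h) and 4268 (24 h), both lowest at 4 h. The receptors for endoplasmic reticulum Fam134b and Tex264 stood at 2809.9 (0 h), 1031 (4 h) and 2141 (24 h) and at 1665 (0 h), 734 (4 h) and 1614 (24 h), and were 2.73-fold lower (2.52 to 2.95) and 2.27-fold lower (2.07 to 2.50) at 4 h than at 0 h. Calcoco1, which acts on the same organelle, had 1177 (0 h), 396 (4 h) and 788 (24 h) and was 2.97-fold lower (2.62 to 3.37) at 4 h than at 0 h.

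Other receptors had another order of libraries. Tax1bp1, a ubiquitin receptor that dampens inflammatory signaling, had 4269 (0 h), 9502 (4 h) and 5261 (24 h), and was 2.23-fold higher (2.15 to 2.31) at 4 h than at 0 h. Lgals8, the galectin that marks damaged vesicles, had 3057 (0 h), 5990.1 (4 h) and 2371 (24 h) and was 2.53-fold lower (2.41 to 2.65) at 24 h than at 4 h. The ferritin receptor Ncoa4 had 1985 (0 h), 958 (4 h) and 895 (24 h), low at both later times as Sqstm1 was. Wdfy3, the adaptor ALFY that binds p62, had 6893 (0 h), 6123 (4 h) and 2039.5 (24 h), and was 3.38-fold lower (3.23 to 3.54) at 24 h than at 0 h.

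Genes of membrane supply and of the beclin 1 complex outside the core held the other higher values at 4 h. Snx18, a sorting nexin that shapes membrane for autophagosomes, had 2127 (0 h), 7221 (4 h) and 1886 (24 h), and was 3.39-fold higher (3.23 to 3.57) at 4 h than at 0 h and 3.83-fold lower (3.65 to 4.02) at 24 h than at 4 h. Tab2, a TAK1 adaptor that also binds beclin 1, had 3424 (0 h), 7428 (4 h) and 4609.8 (24 h), and was 2.17-fold higher (2.08 to 2.26) at 4 h than at 0 h. With library totals the 4 h calls of Tab2 and Tax1bp1 ended. In the same list as Snx18, Tecpr1, which joins autophagosomes to lysosomes through the ATG12 and ATG5 conjugate, had 1299 (0 h), 561 (4 h) and 541 (24 h), Tecpr2 had 651 (0 h), 849 (4 h) and 353 (24 h) and Wac had 1518 (0 h), 2402 (4 h) and 1178 (24 h). Tecpr1 was low at both later times, while Tecpr2 and Wac were highest at 4 h and lowest at 24 h. Of the 15 genes of lysosomal fusion, 2 were at least 2-fold lower at 4 h than at 0 h, beside 14.3% of all genes. One was the tethering subunit Vps18 with 1708 (0 h), 845 (4 h) and 1284 (24 h), whose call ended with ribosomal recentring. For 24 h over 0 h, 0 of the 15 passed 2-fold, and 4 were lower with ribosomal recentring, beside 3028 of 12310 genes.

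The mTORC1 and AMPK list had 0 higher and 3 lower of 30 for 4 h over 0 h, beside 15.2% and 14.3% of all genes. It had 1 higher and 2 lower for 24 h over 0 h, beside 4.76% and 8.85%. Ribosomal recentring left 0 higher and 11 lower, beside 190 and 3028 of 12310 genes. Deptor, an inhibitor of mTOR, had 534 (0 h), 299.6 (4 h) and 83.0 (24 h), and was 6.44-fold lower (5.20 to 8.03) at 24 h than at 0 h. Ddit4, a stress gene that restrains mTORC1, had 532 (0 h), 432 (4 h) and 1084 (24 h), and was 2.04-fold higher (1.84 to 2.25) at 24 h than at 0 h, a call that ended with ribosomal recentring. The Ragulator subunit Lamtor2, which holds mTORC1 at the lysosome, had 1718 (0 h), 858 (4 h) and 2372 (24 h), lowest at 4 h. The folliculin partners Fnip1 and Fnip2 had 1402 (0 h), 2675 (4 h) and 1223 (24 h) and 2488 (0 h), 2305 (4 h) and 911 (24 h), and the AMPK subunit Prkab2 had 912 (0 h), 1343 (4 h) and 596 (24 h), each lowest at 24 h.

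Of 14 transcriptional regulators with a row, 0 were higher and 1 was lower for 4 h over 0 h, beside 15.2% and 14.3% of all genes. For 24 h over 0 h, 0 were higher and 2 lower, beside 4.76% and 8.85%. With ribosomal recentring 4 were lower, beside 3028 of 12310 genes. Dapk1, a kinase that phosphorylates beclin 1 and was kept in this list, had 6726 (0 h), 1758 (4 h) and 2205 (24 h), and was 3.83-fold lower (3.61 to 4.05) at 4 h and 3.05-fold lower (2.92 to 3.19) at 24 h than at 0 h. Foxo3, a forkhead factor that induces autophagy genes, had 586 (0 h), 760.3 (4 h) and 250.6 (24 h), lowest at 24 h. Nfe2l2, which encodes NRF2, had 11870.1 (0 h), 18912 (4 h) and 9399.6 (24 h), highest at 4 h. Tfeb had 2055 (0 h), 1344 (4 h) and 2487 (24 h) and its relatives Tfe3 and Mitf had 2421 (0 h), 3543 (4 h) and 2021 (24 h) and 1529 (0 h), 2103 (4 h) and 961 (24 h). The related Tfec had 3372 (0 h), 3067 (4 h) and 3249.9 (24 h), so with size factors Tfeb and Tfec were lowest and Tfe3 and Mitf highest at 4 h.

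**Figure D5:**
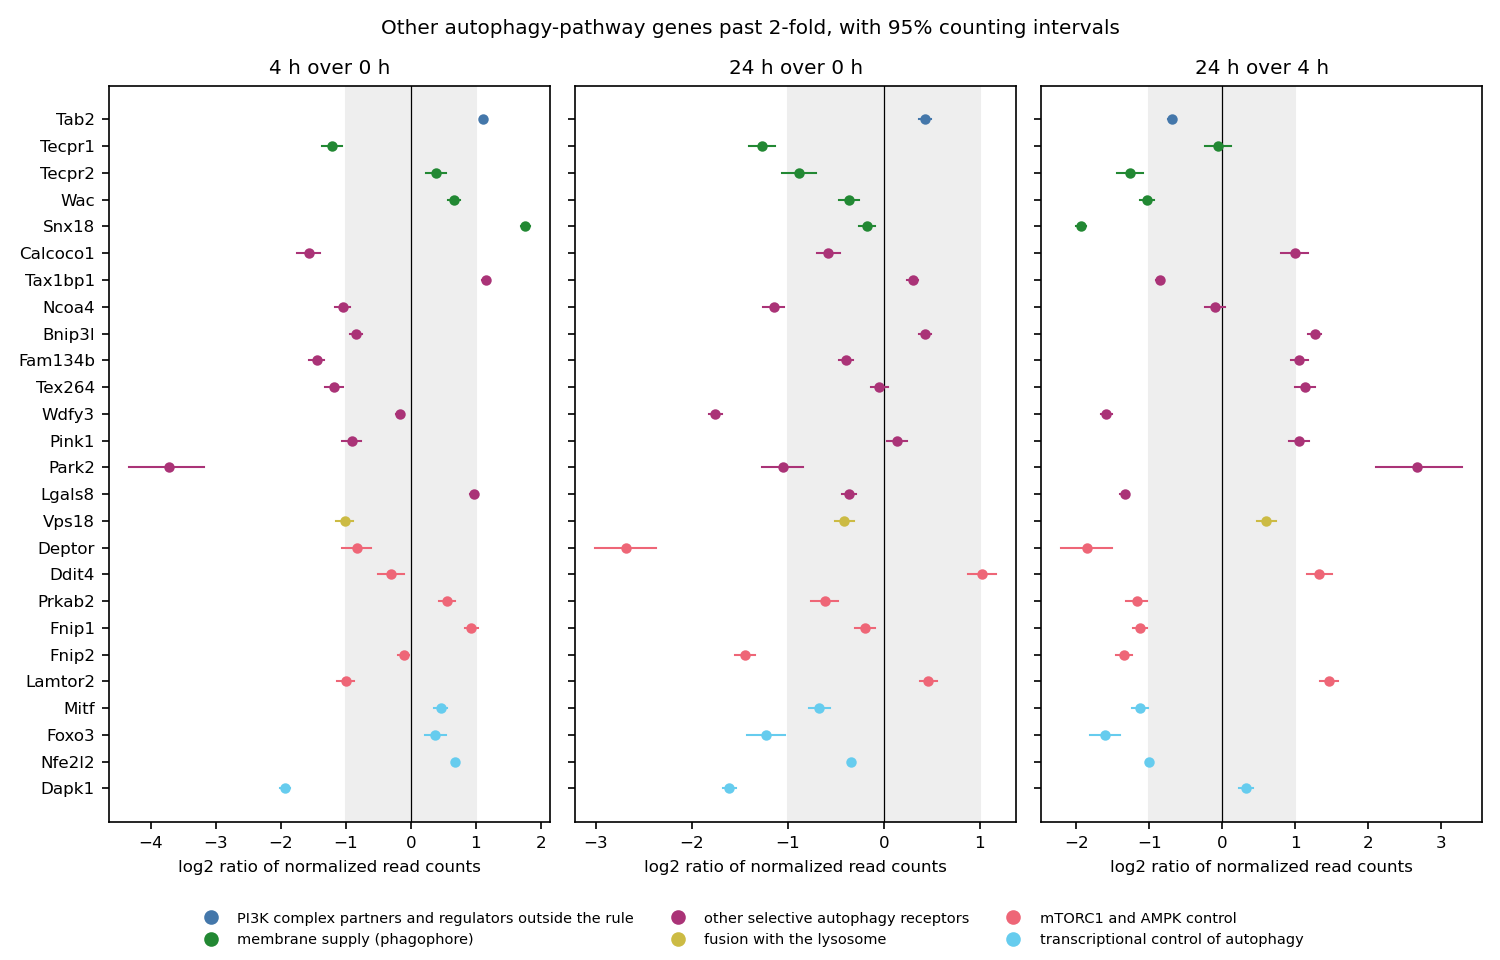
Log2 ratios of normalized counts for the 26 pathway genes past 2-fold in a comparison and at 300 or more normalized counts in a library, 1 panel per comparison with its own horizontal range, coloured by list, with 95% counting intervals as bars and a grey band under 2-fold. Park2 lies furthest left for 4 h over 0 h, at 13.2-fold lower, and Deptor for 24 h over 0 h, at 6.44-fold lower.

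By the authors' deposited fold changes, fewer members stood out. Those for 4 h over 0 h reached 1 log2 unit in either direction in 1 of 34 members, Map1lc3a at -1.02, and in 17.9% of all genes. Those for 24 h over 0 h reached it in Optn, at -1.06, and in 2.68% of genes, and those for 24 h over 4 h in Map1lc3a again, at 1.04, and in 17.4% of genes.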

How the data were processed

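Bulk RNA was sequenced from 3 sorted samples, 1 per time. The authors deposited 3 pairwise tables whose signal values are gene-level counts scaled by a factor fitted to each pair, and whole reads were recovered for 100% of values within a tolerance of 0.001 reads. The tables list genes with a mean above 10. The deposited log2 fold changes and p-values are the authors'; the p-values were not used, since each rests on a fit to 1 library per time. Per the submitters' processing notes, DESeq2 was among the tools and mm10 was the build; no aligner, counter or annotation is named in the sources used here. One column of the table of 24 h and 0 h is headed 4 h, but its reads equal those of 0 h in 12310 of 12310 shared genes and those of 4 h in 66 of 12453; this 1 column was given to no sample. The same file repeated 20 rows, which were dropped.

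Reads were divided by size factors from 12451 genes (1.07 at 0 h, 0.788 at 4 h and 1.22 at 24 h). Ratios put the later library on top, log2 ratios used a pseudocount of 1, and a call needs 2-fold. Intervals are exact Clopper-Pearson at 95%. No count model was fitted, as 1 library per time leaves no residual degrees of freedom. Lengths are of the principal GENCODE M21 transcript. The tools were python 3.11.15, numpy 2.4.6, pandas 2.3.3, scipy 1.17.1 and matplotlib 3.10.9, and the steps were tested on simulated data. Members and lists were chosen with earlier results of these data known. Every member may be named, and a pathway gene is named where it passed 2-fold and reached 300 normalized counts in 1 library; 9430023L20Rik, Wdr45, Wdr45l, Tfeb, Tfe3 and Tfec were named outside that rule after their values were seen. Alternatives were scaling to library totals, recentring on ribosomal protein genes, the authors' scaled values, a mean of at least 100, a pseudocount of 10, a threshold of 1.5-fold, the deposited fold changes, and leaving out the Atg4a row.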

Additional observations from a re-analysis of the deposited data

How the results depend on the processing

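Depth limited Atg9b, whose ratios rest on 5 to 26 reads; each other member had 136 or more. No paired analysis was possible because each time has 1 library, and no library could be left out for the same reason. For 4 h over 0 h, library totals gave 5 members lower and a median of -0.43, ribosomal recentring 2 higher, a mean of at least 100 left 0 higher, the deposited fold changes 0 higher and 1 lower, and 1.5-fold 4 higher and 8 lower. For 24 h over 0 h, library totals turned the median to 0.011, ribosomal recentring gave 9 lower and a median of -0.72, the mean of at least 100 left 0 higher, the deposited fold changes 0 higher and 1 lower, and 1.5-fold 6 lower. For 24 h over 4 h, library totals gave 4 higher, 0 lower and a median of 0.35, ribosomal recentring 0 higher, 5 lower and a median of -0.46, which turned its direction, the deposited fold changes 1 higher and 0 lower, and 1.5-fold 4 higher and 4 lower. The median of all genes itself moved by -0.16, 0.17 and 0.32 log2 units with library totals and by 0.02, -0.55 and -0.48 with ribosomal genes. For 4 h over 0 h, 1554 of 12512 genes were higher and 2166 lower with library totals, and 1950 and 1749 with ribosomal genes. For 24 h over 0 h it was 863 and 845 of 12310, and 190 and 3028. For 24 h over 4 h it was 2901 and 1565 of 12578, and 888 and 3845. Member counts at 1.5-fold and at a mean of at least 100 have no all-gene count beside them. A pseudocount of 10 brought Atg9b for 4 h over 0 h to a log2 ratio of 0.92. For Sqstm1, Optn and Atg2a with 24 h over 0 h, and for Sqstm1, Atg14 and Map1lc3a with 4 h over 0 h, the call held under each of the 3 or 4 other scalings and pseudocounts run, but by the deposited fold changes it held for Optn and Map1lc3a and not for Sqstm1, Atg14 or Atg2a. Leaving out the Atg4a row, an alternative added after the data were seen, moved no count past 1.5 times. The authors' scaled values were not run for 24 h over 0 h, since their 0 h column was given to no sample.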
